A study of Mus musculus with 12 samples.

Results

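The 36 genes described here encode components of the Wnt and beta-catenin pathway. They were chosen by symbol from a gene expression table of mouse forebrain, in which all 36 were found among 12158 genes. The series compares germline heterozygous Chd8 mutant mice (Chd8+/del5) with wild-type littermates of the C57BL/6N strain. Chd8 encodes a chromatin remodelling protein that is known to bind beta-catenin. Bulk forebrain, which means the whole dissected tissue with all its cell types, was collected at the embryonic days named e12.5, e14.5 and e17.5, at birth (P0) and from adults, which the labels put at postnatal day 56 and the protocol at a later age. The table holds 44 RNA-seq libraries, 8 at e12.5, 9 at e14.5, 10 at e17.5, 11 at P0 and 6 from adults.

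The columns of the table name the stage and carry digit codes that the labels do not explain, so no library could be tied to a genotype. The heterozygous and wild-type groups were therefore not compared, and since the labels list both genotypes at every stage, the stages below mix them. In place of that comparison, the level of each gene was set beside the measured level of Chd8 in the same library. Levels are the deposited log2 RPKM values (reads per kilobase of gene scaled to sequencing depth). The scale was read as base 2 although the table does not state the base. A step of 1 on it is then a 2-fold difference. Libraries are numbered within a stage in table order, and the number is only a name.

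Wnt proteins are secreted ligands that bind Frizzled receptors with the co-receptors Lrp5 and Lrp6. Without ligand, beta-catenin is phosphorylated by a destruction complex built on Axin and Apc and is degraded. With ligand, Dishevelled proteins inhibit that complex, and beta-catenin enters the nucleus, where it acts with factors of the Tcf and Lef family on targets such as Axin2, Lef1, Sp5 and Ccnd1. In the embryonic forebrain the pathway is known for its part in patterning the dorsal midline, in progenitor division and in the growth of brain vessels.

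The promoters of 3 members are shown because they hold, or lack, the short core letters bound by Tcf and Lef factors. For 20 of the 36 members a promoter window was at hand in the RefSeq table of build GRCm38.p6, and the 250 bases before the start of the gene were searched on both strands for CTTTGAT and CTTTGTT, a pair of spellings that do not overlap each other. Capitals mark each match, and a match on the opposite strand is printed as its reverse complement. The Sp5 window lies at chr2:70474673-70474922 on the plus strand, the Axin2 window at chr11:108920099-108920348 on the plus strand and the Fzd7 window at chr1:59481897-59482146 on the plus strand. These 3 genes were picked after the matches were known.
Sp5: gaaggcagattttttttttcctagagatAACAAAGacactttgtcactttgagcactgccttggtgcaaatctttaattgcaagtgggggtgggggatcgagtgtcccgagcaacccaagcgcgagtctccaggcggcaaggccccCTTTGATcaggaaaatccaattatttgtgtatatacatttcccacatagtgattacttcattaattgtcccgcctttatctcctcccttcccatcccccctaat
Axin2: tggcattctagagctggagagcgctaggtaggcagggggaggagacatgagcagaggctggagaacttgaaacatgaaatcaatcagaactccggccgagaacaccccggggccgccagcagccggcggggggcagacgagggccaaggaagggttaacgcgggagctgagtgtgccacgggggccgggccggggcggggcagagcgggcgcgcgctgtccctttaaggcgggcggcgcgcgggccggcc
Fzd7: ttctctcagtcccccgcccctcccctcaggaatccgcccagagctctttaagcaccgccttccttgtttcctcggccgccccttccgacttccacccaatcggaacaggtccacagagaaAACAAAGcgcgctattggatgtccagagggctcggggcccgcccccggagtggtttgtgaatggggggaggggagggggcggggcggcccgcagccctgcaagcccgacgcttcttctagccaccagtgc
Sp5 held CTTTGTT on the opposite strand 222 bases before its start and CTTTGAT on the same strand 104 bases before it. Fzd7 held CTTTGTT on the opposite strand 130 bases before its start, and the Axin2 window held neither spelling. Among the 20 members with a window, 2 held either spelling (10%), against 8.06% of all 32851 windows and 9.21% of the 27025 genes they belong to. The share among the members was thus close to that of all promoters, and a match says only that these letters are there.

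The deposited medians over all genes lay between 3.61 and 3.75 in all 44 libraries. No 2 libraries were identical, and libraries of a stage correlated across genes at r from 0.940 to 0.995. Emx1, a transcription factor of the dorsal forebrain, was present in every library, with stage medians from 4.71 in adults to 5.51 at e14.5, while 1 of 5 hindbrain and spinal cord markers was in the table (En1, at a median of -0.27 at e12.5 and lower by median at every later stage). Some libraries stood apart from the rest of their stage. Adult library 1 had a mean of 3.50 over 7 neural progenitor markers against 1.49 to 2.09 in the other adults, and a mean of 2.60 over 4 intermediate progenitor markers against -0.51 to 0.76. Adult library 4 had a mean of 3.22 over 6 markers of thalamus and diencephalon against -0.10 to 1.10 in the other adults, and the same mean ran from 1.03 to 3.65 among the e17.5 libraries. The part of these differences in tissue composition in the results below was not tested, apart from the thalamic markers, to which each member is related further on.

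Most members were highest in the youngest forebrain. By stage median, 26 of the 36 genes peaked at e12.5 and 26 were lowest in adults, 4 peaked in adults, 4 at e14.5 and 2 at birth. Each of the former shares was 72.2% of the members, against 34.2% of the 12102 genes with a mean above -2 that peaked at e12.5 and 37.5% that were lowest in adults. Adults were the highest stage of 11.1% of the members and of 34.3% of all genes. Medians of 16 members (44.4%, against 31.5% of all genes) spanned at least 2 on the log2 scale over the 5 stages, and those of 1 member, Gsk3b, spanned under 1 (0.59). The members were chosen with earlier results of these data known, so their contrast with all genes is a description and no test. The e12.5 libraries also differ from all later ones in read type, as given below, so a peak at e12.5 holds both. In bulk tissue fewer cells of a type and less RNA per cell cannot be told apart.

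**Figure D1:**
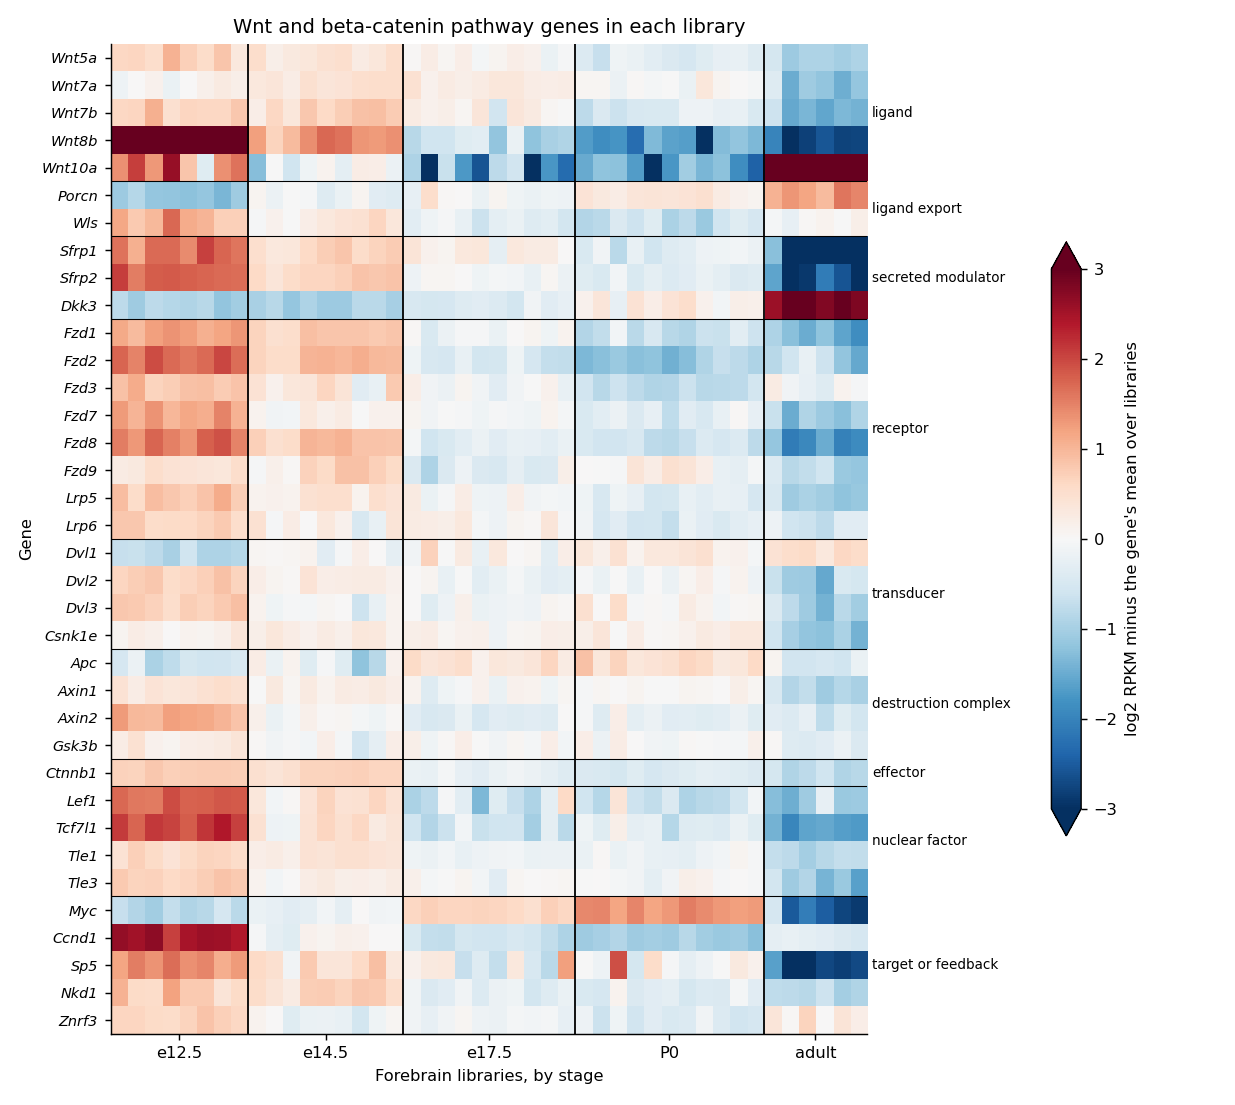
Each row is a gene, grouped by role, and each column a forebrain library, ordered by stage; the colour is log2 RPKM minus that gene's mean over all 44 libraries, cut at 3 in both directions. Red at e12.5 and blue in adults is the common pattern, while Wnt10a, Dkk3, Porcn and Dvl1 have their highest stage median in adults.

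A gene was called higher or lower between 2 stages where the ranges of the libraries did not overlap, with no test, since libraries of a stage are not replicates of a group. The size given for a difference between stages is that between the stage medians, not the gap between the ranges. From e12.5 to e14.5, 3 members were higher (Dvl1, Myc and Porcn) and 19 lower, 61.1% of 36 against 45.4% of all 12102 genes. The member median changed by -0.49 and the median of all genes by 0.03. Of all genes 23.1% were higher and 22.3% lower in this step, while 8.33% of the members were higher and 52.8% lower. Sequencing also differed in this step, with 100 bp paired-end reads at e12.5 and 50 bp single-end reads at the 4 later stages, so stage and read type cannot be told apart.

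From e14.5 to e17.5, 2 members were higher (Myc and Dkk3) and 10 lower, 33.3% against 25.2% of all genes (13.1% higher and 12.1% lower), with a median change of -0.44 against -0.03. From e17.5 to P0, Myc alone was higher and Fzd3 alone was lower, 5.56% against 11.2% of all genes (4.89% higher and 6.28% lower). These counts depended on single libraries. Without e17.5 library 6, 1 member was higher and 4 were lower (Wnt7b, Sfrp1 and Lrp6 added), 13.9% against 13.8% of all genes. The e17.5 column names carry 2 series of sample numbers, and with the 5 libraries of the higher series alone, 2 were higher and 8 lower, 27.8% against 22.1% of all genes. With the 5 of the lower series alone, 2 were higher and 2 lower, 11.1% against 15.2% of all genes. From P0 to adults, 7 members were higher (Fzd3, Wnt10a, Dkk3, Ccnd1, Znrf3, Porcn and Wls) and 18 lower, 69.4% against 54.5% of all genes (29.3% higher and 25.2% lower), with a median change of -0.70 against -0.01. Without adult library 1 the lower count in this step was 23, since Wnt5a, Wnt7b, Fzd7, Lrp5 and Gsk3b were added. Calls of all genes rose too, to 61.2% (31.2% higher and 30.0% lower), against 83.3% of the members. Between P0 and e14.5, 4 members were higher at P0 and 15 lower, 52.8% against 45.8% of all genes (22.7% higher and 23.1% lower), with a median change of -0.56 against -0.04.

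With ranges required to lie at least 0.5 apart on the log2 scale, 24 of the 80 calls over the 5 comparisons were left (30%), and of the calls of all genes 7043 of 22040 were left. From e12.5 to e14.5 this left 7 members, all lower, 19.4% against 14.1% of all genes, and from e14.5 to e17.5 it left 3, all lower, 8.33% against 4.88%. From e17.5 to P0 it left no member and 0.14% of all genes. From P0 to adults it left 7, with 2 higher and 5 lower, 19.4% against 22.7%, and between P0 and e14.5 also 2 higher and 5 lower, 19.4% against 16.4%. The calls left include Wnt8b, Sfrp2, Fzd7, Axin2, Lef1, Tcf7l1 and Ccnd1 from e12.5 to e14.5, and Wnt10a, Dkk3, Sfrp2, Csnk1e, Tcf7l1, Myc and Sp5 from P0 to adults.

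Among the 5 ligand genes, Wnt8b and Wnt10a changed most, and in opposite directions. Wnt8b, a ligand of the embryonic dorsal midline and medial cortex, had log2 RPKM medians, with the lowest and highest library in parentheses, of 4.09 (3.59 to 4.43) at e12.5, 1.48 (0.83 to 1.87) at e14.5, -0.57 (-1.04 to -0.03) at e17.5, -1.50 (-2.90 to -1.04) at P0 and -2.61 (-3.36 to -1.83) in adults. No library of e12.5 overlapped any of e14.5, and none of e14.5 overlapped any of e17.5, while P0 and adult libraries overlapped. The first of these steps was a 6.13-fold decrease of the median and the second a 4.13-fold decrease. With 1 RPKM added to each value before the log, the second difference was -1.17 in place of -2.05, and that of P0 against e14.5 was -1.48 in place of -2.98.

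Wnt10a, another secreted ligand, had log2 RPKM medians of -0.001 (-1.75 to 1.24) at e12.5, -1.50 (-2.66 to -1.15) at e14.5, -3.11 (-4.70 to -1.95) at e17.5, -2.88 (-4.70 to -2.42) at P0 and 3.12 (2.47 to 4.34) in adults. All 6 adult libraries lay above all younger ones, and 3 libraries of e17.5 and P0 were near -4.70. The difference of adults from P0 was 6.00 on the deposited scale and 3.09 with 1 RPKM added. In adults its median of 3.12 stood beside 3.41 for Wnt7b.

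Wnt7b, a ligand required for the growth of brain vessels, had log2 RPKM medians of 5.44 (5.30 to 5.87) at e12.5, 5.56 (4.9989 to 5.71) at e14.5, 4.96 (4.23 to 5.17) at e17.5, 4.36 (4.03 to 4.67) at P0 and 3.41 (3.26 to 4.20) in adults. It was the highest ligand at every stage, and its P0 libraries lay below those of e14.5, by 1.19 between medians. The adult and P0 ranges overlapped through adult library 1 (4.20), and without that library they did not, with a difference of -0.98. Wnt7a, its close relative, was lower in adults than at P0 by 1.18, with adult values of 2.02 to 3.14. Wnt5a, which mostly acts without beta-catenin, ran from a median of 2.67 at e12.5 to 1.09 in adults, and its P0 libraries were below those of e14.5.

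Both genes of ligand export were higher in adults than at birth, as were 29.3% of all genes. Porcn, the acyltransferase that adds the lipid Wnt proteins need, had log2 RPKM medians of 2.95 (2.76 to 3.26) at e12.5, 3.95 (3.74 to 4.20) at e14.5, 3.99 (3.87 to 4.66) at e17.5, 4.48 (4.20 to 4.61) at P0 and 5.37 (5.08 to 5.72) in adults. Its adult libraries lay above those of P0, by 0.89 between medians. Its e14.5 libraries lay above those of e12.5, by 0.99 between medians, so Porcn ran against most members in both steps. Wls, which carries Wnt proteins to the cell surface, was lower at each step from e12.5 to P0 by median (5.08, 4.40, 3.79 and 3.46) and was 4.10 in adults, above every P0 library.

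The 3 secreted modulators all changed between birth and adulthood, Sfrp1 and Sfrp2 downward and Dkk3 upward. In this step 54.5% of all genes were called. Sfrp1, a secreted protein that binds Wnt ligands, had log2 RPKM medians of 6.44 (5.84 to 6.82) at e12.5, 5.38 (5.09 to 5.61) at e14.5, 5.02 (4.50 to 5.16) at e17.5, 4.55 (3.97 to 4.70) at P0 and 1.75 (1.54 to 3.52) in adults. Sfrp2, its relative, had log2 RPKM medians of 5.10 (4.86 to 5.40) at e12.5, 3.98 (3.70 to 4.18) at e14.5, 3.26 (3.09 to 3.39) at e17.5, 2.97 (2.86 to 3.24) at P0 and 0.58 (-0.32 to 1.75) in adults. Adult medians lay 6.95-fold below P0 for Sfrp1 and 5.25-fold below for Sfrp2, and adult library 1 was the highest adult for Sfrp1 at 3.52, still under every P0 library. Over all 5 stages the summed linear level of the pair had medians of 124, 58.0, 42.0, 30.7 and 4.86 RPKM, while the share of Sfrp1 in the sum stayed between 71.4% and 76.4% by median. The pair thus declined in near-constant proportion.

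Dkk3, a divergent member of the Dickkopf family, had log2 RPKM medians of 3.44 (3.13 to 3.54) at e12.5, 3.35 (3.16 to 3.51) at e14.5, 3.92 (3.77 to 4.21) at e17.5, 4.48 (4.06 to 4.85) at P0 and 7.30 (6.89 to 7.57) in adults. All adult libraries were above all P0 libraries, a 7.06-fold difference of the medians, and all e17.5 libraries were above all e14.5 libraries. Several marker lists were higher in adults too. By median over libraries, oligodendrocyte lineage markers had a mean of 3.08 at P0 and 6.62 in adults over 6 genes, astrocyte markers 3.23 and 5.83 over 5 genes, microglia markers 2.14 and 4.70 over 5 genes, and neuron markers 6.44 and 7.26 over 8 genes. The part of cell composition in the Dkk3 difference was not tested.

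**Figure D2:**
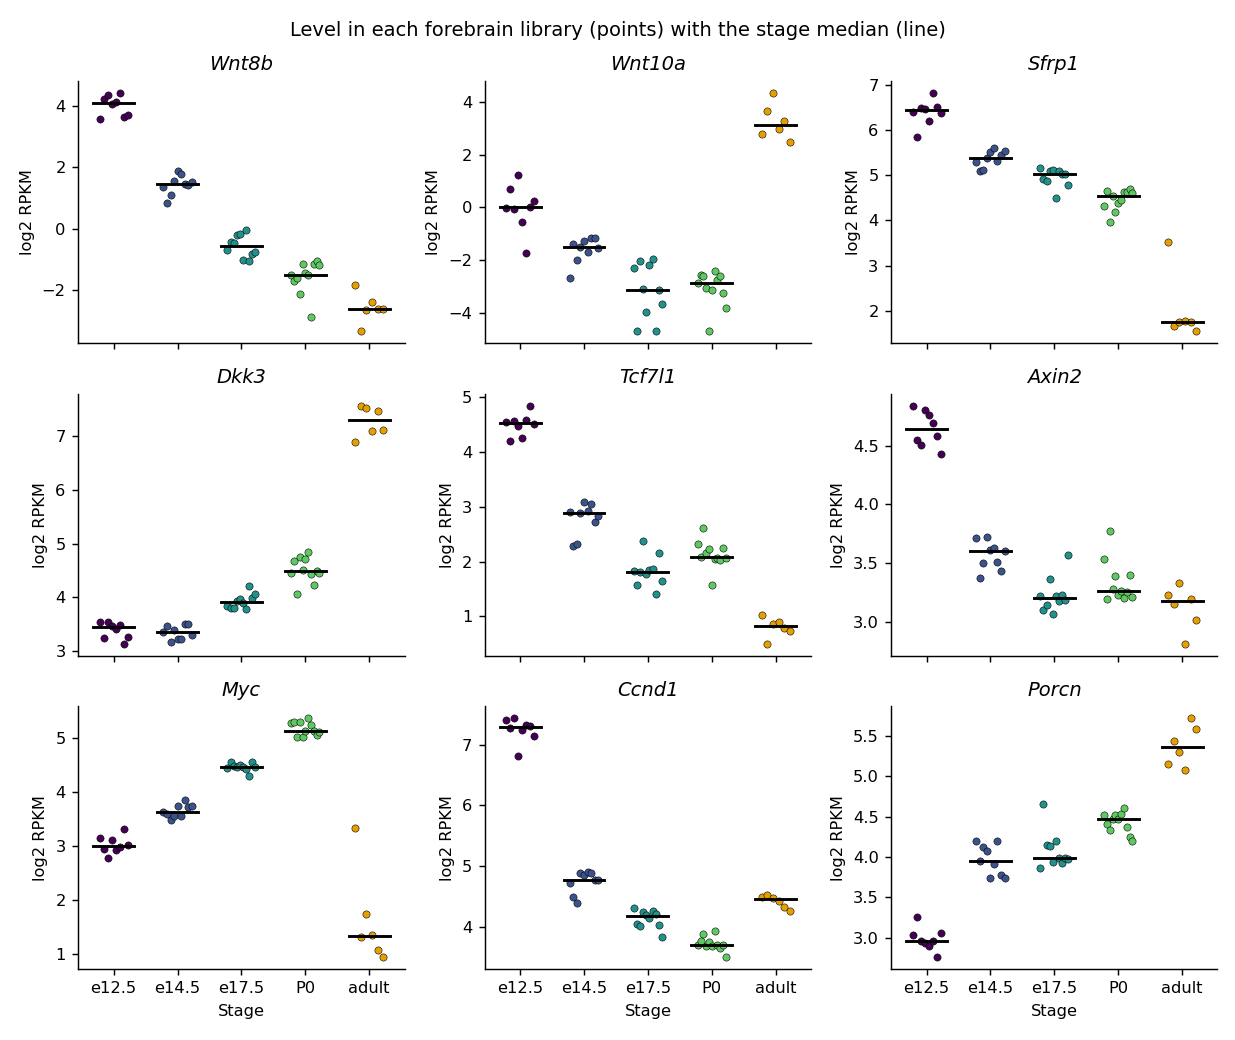
Log2 RPKM of 9 members in each of the 44 libraries (points), by stage, with the stage median as a line; the genes were picked after their values were seen. The median of Wnt8b declines at every stage, Wnt10a and Dkk3 are highest in adults, and Myc has medians from 3.01 at e12.5 up to 5.14 at P0 and then 1.34 in adults, where library 1 stands at 3.34.

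Of the 8 receptor and co-receptor genes, 6 were lower at e14.5 than at e12.5 (75%, against 22.3% of all genes). None was higher, against 23.1% of all genes, and read type also differed in this step. Fzd2 had log2 RPKM medians of 5.03 (4.83 to 5.33) at e12.5, 4.31 (3.88 to 4.42) at e14.5, 2.83 (2.58 to 3.21) at e17.5, 2.12 (1.88 to 2.63) at P0 and 2.61 (1.79 to 3.11) in adults. Fzd8 had log2 RPKM medians of 4.20 (3.97 to 4.58) at e12.5, 3.53 (3.16 to 3.71) at e14.5, 2.39 (2.07 to 2.62) at e17.5, 2.10 (1.83 to 2.27) at P0 and 0.77 (0.56 to 1.52) in adults. Fzd1 had log2 RPKM medians of 4.64 (4.37 to 4.77) at e12.5, 4.25 (3.91 to 4.33) at e14.5, 3.39 (2.98 to 3.54) at e17.5, 2.77 (2.52 to 3.34) at P0 and 2.06 (1.57 to 2.50) in adults. All 3 Frizzled genes were lower in both embryonic steps, with no overlap of libraries (for Fzd1 in the first step not after quantile normalization), and Fzd1 and Fzd8 were lower again in adults than at P0.

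Fzd7 had log2 RPKM medians of 3.35 (3.23 to 3.71) at e12.5, 2.35 (2.11 to 2.53) at e14.5, 2.18 (2.10 to 2.32) at e17.5, 1.92 (1.46 to 2.27) at P0 and 1.23 (0.74 to 1.55) in adults. Its e14.5 libraries lay below those of e12.5, and later steps overlapped. Fzd3, a receptor best known for axon guidance, had log2 RPKM medians of 4.51 (4.32 to 4.75) at e12.5, 4.02 (3.30 to 4.43) at e14.5, 3.54 (3.30 to 3.84) at e17.5, 2.85 (2.74 to 3.09) at P0 and 3.58 (3.27 to 3.89) in adults. It was the single member lower at P0 than at e17.5 and was higher again in adults by 0.73, so its lowest stage was birth. Fzd9 had log2 RPKM medians of 3.13 (2.99 to 3.27) at e12.5, 3.33 (2.71 to 3.63) at e14.5, 2.31 (1.81 to 2.92) at e17.5, 2.76 (2.47 to 3.21) at P0 and 1.95 (1.58 to 2.34) in adults, and only the adult step, a difference of -0.81, had no overlap among neighbouring stages.

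The summed linear level of the 8 Frizzled genes in the table had medians of 138.8, 86.7, 50.3, 38.8 and 32.7 RPKM from e12.5 to adults. Within that sum Fzd3 went from a median share of 16.7% at e12.5 to 36.5% in adults, and its adult range of 29.1% to 42.8% lay above that of every younger stage. Fzd2 had the largest share at e12.5, 23.8%, and 17.0% in adults. Linear levels are per gene length, so shares compare levels between genes.

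Lrp6, a co-receptor needed for the beta-catenin branch, had log2 RPKM medians of 3.84 (3.73 to 4.02) at e12.5, 3.33 (2.73 to 3.67) at e14.5, 3.32 (3.04 to 3.56) at e17.5, 2.87 (2.48 to 3.10) at P0 and 2.74 (2.42 to 3.05) in adults. The e14.5 libraries lay below those of e12.5, and no other neighbouring stages were apart. Lrp5 ran from a median of 3.42 at e12.5 to 1.54 in adults, and Lrp6 made up the larger part of their summed RPKM at every stage, 57.0% to 66.7% by median.

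**Figure D3:**
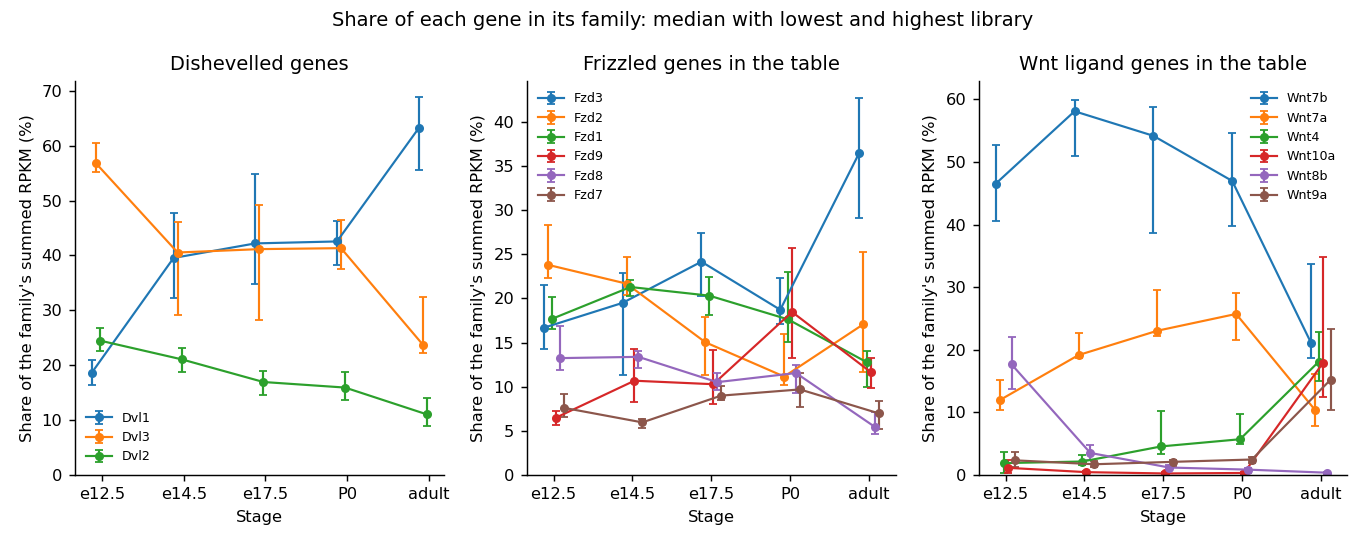
Median share of each gene in the summed linear RPKM of its family, with whiskers from the lowest to the highest library, for the 3 Dishevelled genes and the 6 most abundant Frizzled and Wnt genes in the table. Dvl1 and Dvl3 exchange places between e12.5 and adults, Fzd3 is the largest Frizzled share in adults, and the Wnt sum is shared more evenly in adults than before birth.

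The Dishevelled genes, which relay the signal from Frizzled, changed in opposite directions. Dvl1 was higher at e14.5 than at e12.5 by 0.85, whereas Dvl2 and Dvl3 were lower in that step and again in adults. Dvl2 had log2 RPKM medians of 4.52 (4.39 to 4.72) at e12.5, 4.05 (3.88 to 4.25) at e14.5, 3.64 (3.50 to 3.92) at e17.5, 3.81 (3.61 to 4.04) at P0 and 2.98 (2.30 to 3.38) in adults. Dvl3 had log2 RPKM medians of 5.79 (5.57 to 5.93) at e12.5, 4.99 (4.42 to 5.14) at e14.5, 4.90 (4.66 to 5.18) at e17.5, 5.08 (4.96 to 5.59) at P0 and 4.11 (3.62 to 4.60) in adults. The share of Dvl1 in the summed level of the 3 genes was 18.6% at e12.5, 39.5% at e14.5, 42.2% at e17.5, 42.5% at birth and 63.2% in adults, while that of Dvl3 was 56.8% at e12.5 and 23.8% in adults. The e12.5 range for Dvl1, 16.4% to 21.0%, and the adult range, 55.5% to 68.8%, overlapped no other stage. Csnk1e, a kinase that acts on Dishevelled, had medians of 6.31, 6.42, 6.33 and 6.39 from e12.5 to P0 and was lower in adults than at P0 by 1.29.

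The Wnt ligand genes shared their sum differently with age. Over the 10 Wnt genes in the table the summed level had medians of 96.6, 80.5, 57.5, 44.4 and 52.7 RPKM. Wnt7b held 46.5% at e12.5, 58.1% at e14.5, 54.2% at e17.5, 47.0% at P0 and 21.1% in adults. Wnt8b held 17.7% at e12.5 and 0.3% in adults, where Wnt10a held 17.8%. Wnt4 and Wnt9a, which are no members, held 18.1% and 15.2% in adults.

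In the destruction complex, Axin2, a target gene that feeds back on the pathway, was the sole member lower at e14.5 than at e12.5 (25% of 4, against 22.3% of all genes). It had medians of 4.64, 3.60, 3.20, 3.26 and 3.17 from e12.5 to adults, so the first step, a difference of -1.04, took most of a span of 1.47. Apc, the scaffold of the complex, ran the other way before birth, with log2 RPKM medians of 4.73 (4.34 to 5.12) at e12.5, 5.08 (4.08 to 5.50) at e14.5, 5.65 (5.40 to 5.93) at e17.5, 5.78 (5.58 to 6.16) at P0 and 4.76 (4.70 to 5.37) in adults. Its P0 libraries were above those of e14.5, although not after quantile normalization, and its adult libraries were below those of P0, by 1.02 between medians. Gsk3b, the kinase that marks beta-catenin, had log2 RPKM medians of 5.43 (5.28 to 5.66) at e12.5, 5.15 (4.62 to 5.41) at e14.5, 5.21 (5.07 to 5.41) at e17.5, 5.18 (5.03 to 5.42) at P0 and 4.83 (4.77 to 5.23) in adults, and no neighbouring stages were apart. Axin1 was lower in adults than at P0 by 0.91.

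Ctnnb1, which encodes beta-catenin itself, was the highest member at every stage, with log2 RPKM medians of 8.90, 8.80, 7.96, 7.74 and 7.35. Its e12.5 and e14.5 ranges overlapped, and its e17.5 libraries were below those of e14.5, by 0.85 between medians. Its adult libraries were below those of P0, by 0.38 between medians, or by 0.67 after quantile normalization. The step with the largest decrease of Ctnnb1 was thus later than that of Axin2.

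Of the nuclear factors and co-repressors, Lef1 and Tcf7l1 had the steepest first step. Tcf7l1, which acts mostly as a repressor, had log2 RPKM medians of 4.52 (4.19 to 4.84) at e12.5, 2.89 (2.29 to 3.09) at e14.5, 1.82 (1.42 to 2.37) at e17.5, 2.08 (1.58 to 2.62) at P0 and 0.83 (0.49 to 1.03) in adults. Lef1, an activator and itself a target, had log2 RPKM medians of 4.27 (4.06 to 4.45) at e12.5, 2.92 (2.41 to 3.16) at e14.5, 1.97 (1.14 to 3.08) at e17.5, 1.87 (1.56 to 2.88) at P0 and 1.39 (1.03 to 2.25) in adults. Both were lower at e14.5 than at e12.5 in all libraries, Tcf7l1 by 1.64 and Lef1 by 1.35 between medians. Tcf7l1 was lower again in adults than at P0, by 1.26. Lef1 was called in that step only without adult library 4, with a difference of -0.50. The spread of Lef1 among e17.5 libraries, from 1.14 to 3.08, was wider than that first step. Tle1 and Tle3, co-repressors that bind Tcf factors, were lower in adults than at P0 by 0.61 and 1.06.

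Targets and feedback genes did not move as a group. Ccnd1, the cyclin of early cell cycle entry, had log2 RPKM medians of 7.29 (6.81 to 7.43) at e12.5, 4.77 (4.39 to 4.91) at e14.5, 4.17 (3.84 to 4.31) at e17.5, 3.70 (3.51 to 3.93) at P0 and 4.45 (4.26 to 4.53) in adults. Its first step was a 5.74-fold decrease, its lowest stage was P0, and its adult libraries were all above those of P0. Sp5, a transcription factor that is a direct target of the pathway in many tissues, had log2 RPKM medians of 2.01 (1.74 to 2.32) at e12.5, 1.13 (0.54 to 1.56) at e14.5, 0.52 (-0.16 to 1.88) at e17.5, 0.63 (0.12 to 2.57) at P0 and -2.12 (-2.67 to -0.99) in adults. Sp5 was lower at e14.5 than at e12.5 and in adults than at P0, where the difference was -2.75, or -1.05 with 1 RPKM added.

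Myc, a growth-promoting transcription factor and a target of many pathways, had log2 RPKM medians of 3.01 (2.79 to 3.33) at e12.5, 3.63 (3.49 to 3.85) at e14.5, 4.47 (4.30 to 4.56) at e17.5, 5.14 (5.03 to 5.37) at P0 and 1.34 (0.96 to 3.34) in adults. It was higher at each step from e12.5 to P0 with no overlap of libraries, which no other member was, and then 13.9-fold lower in adults by median. Nkd1, an inhibitor that binds Dishevelled, was lower at e17.5 than at e14.5 by 0.93 and in adults by 0.40. Znrf3, which removes Frizzled receptors from the membrane, was lower at e14.5 by 0.83 and higher in adults than at P0 by 0.70, or by 0.46 with 1 RPKM added.

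The neural progenitor markers, 7 of 7 in the table, had a mean over genes of 6.94 at e12.5, 5.83 at e14.5, 4.58 at e17.5, 4.11 at P0 and 1.81 in adults by median, which is lower at each stage than at the one before. No library had a mean of these markers below 1.49. Markers of meninges and fibroblasts, 6 of 6 in the table, also declined, with medians of 4.63, 3.98, 3.81, 2.84 and 1.03 from e12.5 to adults. Blood markers, 3 of 5 in the table, had medians of 8.19, 5.39, 0.50, -1.59 and -1.26. The globin genes Hbb-y and Hba-x went from 11.13 to -3.03 and from 9.70 to -2.99 between e12.5 and P0. Alas2, the third, did not decline before birth, with medians of 3.66, 3.67, 3.91, 1.21 and 1.03. Whether the members declined with any of these markers was not tested.

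The rest of the pathway was described from a list of 108 further genes, of which 75 were in the table. From e12.5 to e14.5, 6 of the 75 were higher (8%, against 23.1% of all genes) and 22 lower (29.3%, against 22.3%). From e14.5 to e17.5, 5 were higher (6.67%, against 13.1%) and 18 lower (24%, against 12.1%). From e17.5 to P0, 2 were higher and 5 lower, 9.33% against 11.2% of all genes. From P0 to adults 19 were higher (25.3%, against 29.3%) and 22 lower (29.3%, against 25.2%).

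The 6 of them with the widest span of stage medians were Tcf7l2, Lmx1a, Ror2, Fzd10, Vangl2 and Rspo1, with spans from 4.02 to 5.97. Tcf7l2, the Tcf factor known for its part in the thalamus, had medians of 5.99 at e12.5, 5.56 at e14.5, 2.61 at e17.5, 4.44 at P0 and 0.02 in adults, and its e17.5 libraries ran from -0.38 to 6.71. Rspo1, which strengthens Wnt signals by removing Znrf3, had medians of 4.22 at e12.5, 2.05 at e14.5, 0.21 at e17.5, 0.67 at P0 and 3.21 in adults. Ror2, a receptor of Wnt5a, had medians of 3.09 at e12.5 and -1.52 in adults.

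Lef1 was the sole member called in a relation to markers of the thalamus within stages over all libraries. This relation was noticed in the values and then fitted, so it is a description of these libraries. The marker level was the mean log2 RPKM of Gbx2, Lhx9, Slc17a6, Rora, Prkcd and Tcf7l2, all 6 of them in the table, and Tcf7l2 is itself a factor of the pathway. At e17.5 library 10 had a marker mean of 3.65 and Lef1 at 3.08, whereas library 5 had 1.11 and 1.14. In P0 library 3 the marker mean was 3.71 and Lef1 2.88, against 1.37 and 1.56 in P0 library 7. In adult library 4 they were 3.22 and 2.25, and Lef1 was between 1.03 and 1.41 in the other adults.

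Not every marker moved with the mean, and a marker from outside the thalamus moved with it in these libraries. Prkcd, a kinase of thalamic neurons, ran the other way at e17.5 and P0: it was lowest of its stage in e17.5 library 10 (3.04) and highest in P0 library 7 (4.02). En1, the hindbrain and midbrain factor in the table, was highest of its stage in e17.5 library 10 (0.97), in P0 library 3 (2.83) and in adult library 4 (-0.16, against -5.08 by median in adults). The part of tissue other than thalamus in the relation of Lef1 was not tested.

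Over all genes 4.27% moved with the marker mean within stages by limma with Benjamini-Hochberg adjustment over 12096 genes, 3.11% rising and 1.17% falling with it, and among the members Lef1 alone did (2.78%). Its slope was 0.42 log2 per log2 (SE 0.05, adjusted p = 1.04e-07). The adult marker means fell into separate clusters, because library 4 stood apart, so correlations are given over the other 38 libraries. There Pearson's r of the within-stage deviations was 0.81 and Spearman's rho 0.73, with permutation p of 1e-05 and 2e-05 over 100000 two-sided permutations within stages, the former the smallest they can give. Without the 2 libraries farthest from the median, P0 library 7 and e17.5 library 10, r was 0.74. The sign was the same in all 5 stages, with r from 0.23 at e12.5 to 0.87 at e17.5, although in adults it rested on library 4. Leaving out any 1 library gave limma adjusted p from 3.78e-08 to 2.14e-06.

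Other targets were not called with the thalamic markers over all libraries, Nkd1 at a slope of 0.12 (SE 0.04, limma adjusted p = 0.072), Sp5 at 0.24 (SE 0.10, limma adjusted p = 0.23) and Axin2 at 0.05 (SE 0.03, limma adjusted p = 0.55). Axin2 depended on adult library 4, where it was 2.81, the lowest value of the gene in any library. Without that library its slope was 0.13 (SE 0.03, limma adjusted p = 0.015), and without all adults 0.14 (SE 0.03, limma adjusted p = 0.0053). Without adults Wnt7b fell with the markers, with a slope of -0.20 (SE 0.05, limma adjusted p = 0.0064). In these fits more of all genes were called too, 6.58% without adult library 4, against 2 of 36 members (5.56%), and 10.1% without adults, against 3 of 36 (8.33%). Over the 38 libraries without adults Pearson's r was 0.59 for Axin2, -0.56 for Wnt7b, 0.43 for Nkd1 and -0.44 for Sfrp1. Their permutation p was 0.00012, 0.00034, 0.0027 and 0.00534, not adjusted over members. The permutations were run for members only, so no share of all genes stands beside them.

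**Figure D4:**
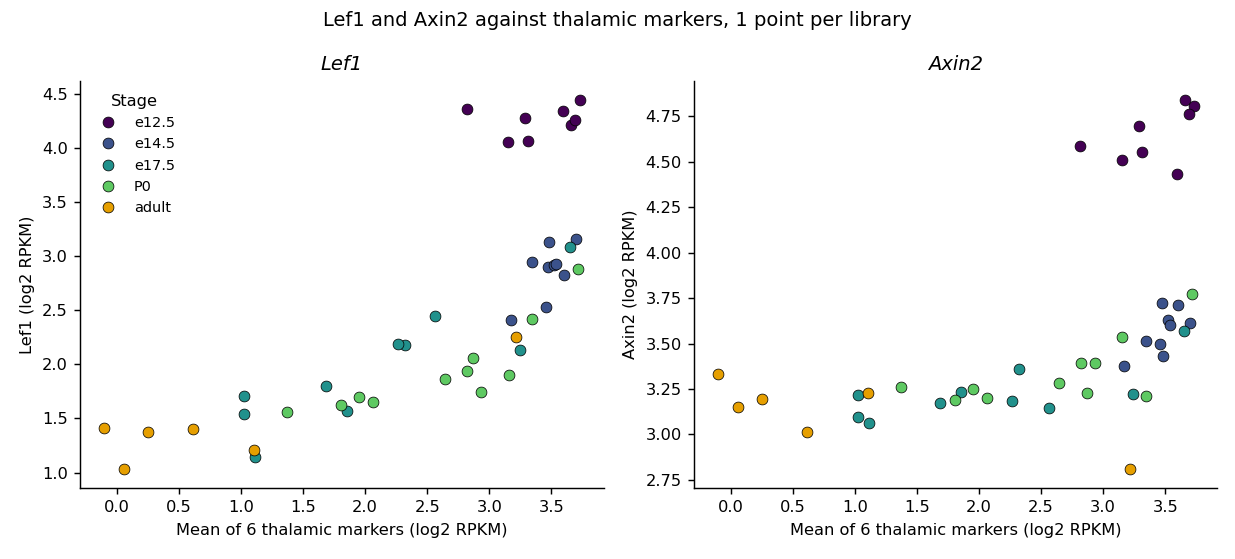
Log2 RPKM of Lef1 (left) and Axin2 (right) against the mean log2 RPKM of 6 thalamic markers, 1 point per library, coloured by stage. Lef1 rises with the markers within e17.5 and P0 libraries, and in adults only through library 4. Among the other adults the highest Lef1 (1.41) goes with the lowest marker mean (-0.10). The adult library with a marker mean of 3.22 has the lowest Axin2 level, 2.81.

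Chd8, the gene the study targeted, had log2 RPKM medians of 4.31 (3.90 to 4.96) at e12.5, 4.01 (3.62 to 4.69) at e14.5, 3.94 (3.70 to 4.50) at e17.5, 4.14 (3.69 to 4.60) at P0 and 3.72 (3.08 to 4.15) in adults. The labels give no genotype for these libraries, so the values check no label. Within stages, 27.9% of 12101 genes moved with the Chd8 level by limma with stage as the other term (Benjamini-Hochberg adjusted p below 0.05 over all genes), 1760 of them rising and 1619 falling. Of the 36 members 8 did (22.2%), 7 rising and 1 falling, a share below that of all genes. After quantile normalization 8 rose (Csnk1e added) and 2 fell (Fzd2 added), 27.8% against 26.7% of all genes. The relation of the members to Chd8 is therefore no result about the pathway, and the values are given gene by gene. Among the 75 other pathway genes 12 rose and 8 fell with Chd8 (26.7%), also near the background.

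Lrp6 had the smallest adjusted p of the members, with a slope of 0.36 log2 per log2 of Chd8 (SE 0.08, limma adjusted p = 0.0011) and the same sign in all 5 stages. The adult Chd8 levels fell into separate clusters, so correlations are given over the other 38 libraries. There r for Lrp6 was 0.49 and rho 0.54, with permutation p of 0.00144 and 0.00072, and r was 0.40 without e12.5 library 2 and e14.5 library 1, the 2 farthest from the median. Leaving out any 1 library gave limma adjusted p from 2.58e-04 to 0.00533.

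Apc rose with Chd8 at a slope of 0.38 (SE 0.11, limma adjusted p = 0.012), also with 1 sign in all 5 stages, and over 38 libraries r was 0.44 and rho 0.52 with permutation p of 0.00413 and 0.00081. Without the 2 farthest libraries r was 0.30. Fzd9 fell with Chd8 at a slope of -0.33 (SE 0.11, limma adjusted p = 0.026), with r of -0.44 and rho of -0.40 over 38 libraries and permutation p of 0.00401 and 0.0142. It was not called without e14.5 library 1, without e17.5 library 2 or without all P0 libraries (slope -0.32, limma adjusted p = 0.081). Nor was Fzd9 called without all e14.5 libraries or without all e17.5 libraries. Without P0 the falling member was Fzd2, with a slope of -0.40 (SE 0.12, limma adjusted p = 0.018). Lrp6, Apc and Fzd9 were the members still called with the adults left out, 8.33% of 36 against 17.9% of all genes.

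The other 5 members were not called without adults, and 4 of them kept similar slopes. Dvl2 had a slope of 0.26 (SE 0.08, limma adjusted p = 0.013) over all libraries and 0.06 without adults (limma adjusted p = 0.55), where r was 0.16. Gsk3b had a slope of 0.20 with and without adults (limma adjusted p = 0.082 without), and over the 38 libraries r was 0.38 and rho 0.46, with permutation p of 0.0194 and 0.00526. Fzd3 had a slope of 0.29 over all libraries and 0.24 without adults (limma adjusted p = 0.11), with r of 0.35 and rho of 0.44 and permutation p of 0.023 and 0.00642. Dvl3 went from 0.26 to 0.19 (limma adjusted p = 0.15), with r of 0.32, and Porcn from 0.21 to 0.18 (limma adjusted p = 0.16), also with r of 0.32. Porcn was the weakest, with a limma adjusted p of 0.048 that was lost in 24 of the 44 fits with 1 library left out. Leaving out adult library 4 took the count of rising members from 7 to 4. In that fit 13.9% of the members and 23.4% of all genes were called in either direction.

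Lef1, Axin2, Sp5, Ccnd1 and Myc, the members best known as targets, were not called with Chd8, and their slopes lay between -0.01 for Ccnd1 and 0.37 for Sp5, whose SE was 0.23. Ctnnb1 had a slope of -0.03 (SE 0.05). With the mean of the thalamic markers as a further term 7 of the 8 calls remained, all but Porcn. In that fit 19.4% of the members and 28.8% of all genes were called. Nothing in the labels ties each library to its own animal, so these p-values measure the spread between libraries, which may be technical.

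**Figure D5:**
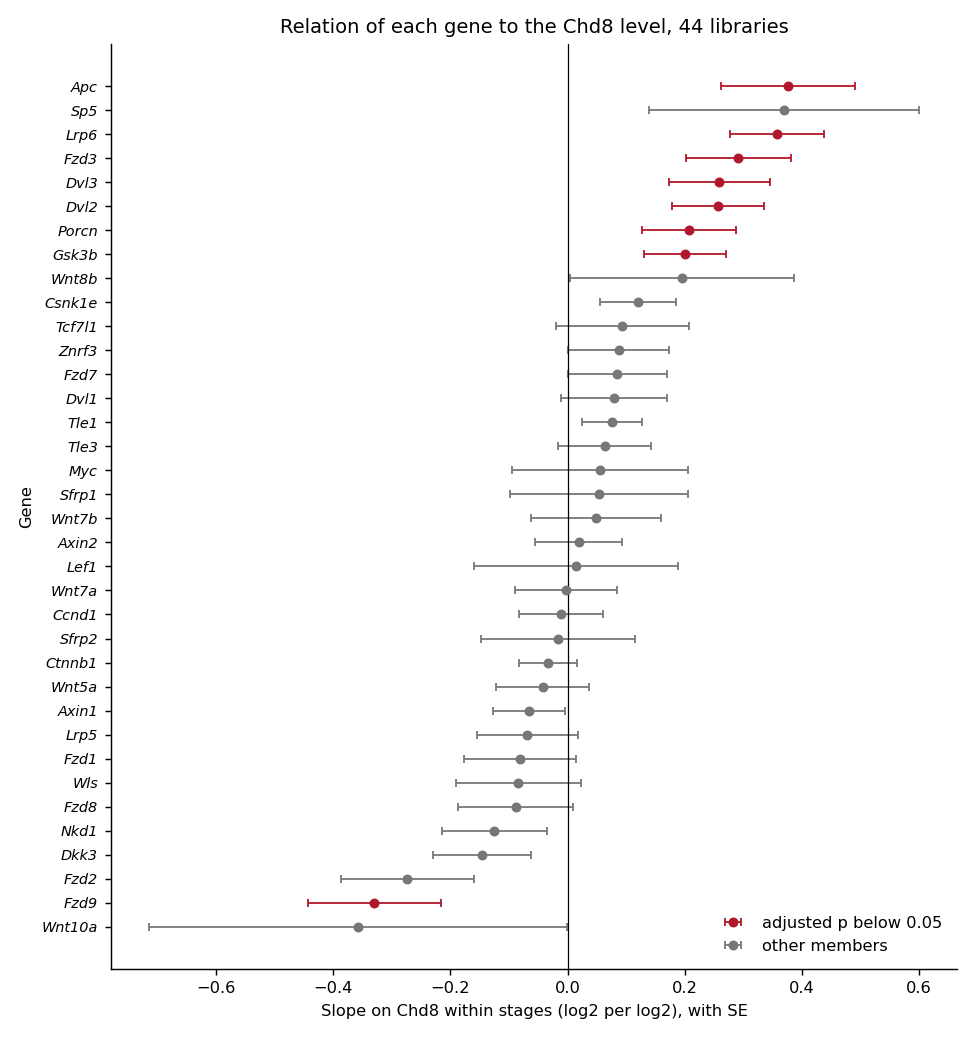
Slope of each of the 36 members on the Chd8 level within stages, in log2 per log2, with the SE as whiskers, over 44 libraries; red marks a limma adjusted p below 0.05. The 7 red genes on the right have slopes from 0.20 to 0.38 and Fzd9 stands at -0.33. Ctnnb1 and the target genes Lef1, Axin2, Myc and Ccnd1 lie close to 0, with SE of 0.17 for Lef1 and 0.15 for Myc. Of the other target and feedback genes, Sp5 stands at 0.37 (SE 0.23), Nkd1 at -0.12 (SE 0.09) and Znrf3 at 0.09 (SE 0.09), none of them red.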

How the data were processed

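The authors' deposited table gives 1 log2 RPKM value per gene and library, per the file name; no source used here gives its log base, prior count, read counter, annotation, gene filter or normalization. Per the submitters' processing notes, bcl2fastq, STAR 2.4.2a and build mm9 were used. Poly(A) RNA libraries were stranded, per the labels' protocols. Read counts are not part of the table, and depth was not estimated. Replicates were neither averaged nor paired, and the stage came from the column names, 0 of which were left out. The Chd8 peak list was not used here, because its build differs from that of the promoter table.

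The members and lists were chosen with earlier results of these data known. All members were named, with values by library for those spanning at least 2 log2 or called with Chd8; of other pathway genes, up to 6 with the widest span were named. Genes with a mean above -2 were described. Relations to Chd8 used limma 3.58.1 in R 4.3.3 (expression by stage and Chd8 level, trended variance, Benjamini-Hochberg adjustment over all genes). The fit was also run on simulated data with noise drawn separately for each gene, which cannot show how it behaves where genes vary together. Permutations were run in Python 3.11.15 with numpy 2.4.6. Chosen after values were seen were the relation to thalamic markers (1 of 13 marker lists), the family shares, the plotted genes, and the promoter search, for which 4 spellings over slightly longer windows were looked at before 2 spellings and 250 bases were kept. Alternatives were other scalings, no filter on low genes, a pseudocount, a stricter gap, leaving out each library or stage, rank-based relations and further terms in the fit.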

Additional observations from a re-analysis of the deposited data

Results flagged for a closer look

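In stages of 6 to 10 libraries, the highest and lowest library of each member and of Chd8 was compared with its nearest neighbour relative to the range (Dixon's 95% limits). Of 148 such sets 16 had a library far from the others, where chance alone would give about 7.4. The 11 libraries of P0 exceed the sizes these limits cover and were left out.

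Adult library 1 gave 6 of the 16. It was the highest adult for Wnt5a (1.49 log2 RPKM), Wnt7b (4.20), Sfrp1 (3.52), Lrp5 (2.12), Myc (3.34) and Sp5 (-0.99). The same library had the highest neural and intermediate progenitor marker means among adults, 3.50 and 2.60, and the part of these in the 6 values was not tested. Adult library 4 was the highest adult for Lef1 (2.25) and had a thalamic marker mean of 3.22.

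At e17.5, library 6 was lowest for Wnt7b (4.23), Csnk1e (6.04) and Tle3 (4.54). Library 2 was highest for Porcn (4.66) and lowest for Fzd1 (2.98), and library 8 was lowest for Myc (4.30). At e12.5, library 4 was highest for Wls (5.82) and lowest for Ccnd1 (6.81); its marker means for meninges and fibroblasts (5.66) and for thalamus (3.73) were the highest at e12.5, and their part was not tested. At e14.5, library 7 was lowest for Dvl3 (4.42).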

How the results depend on the processing

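After median centring and after quantile normalization no called stage difference of a member changed sign (80 calls over the 5 comparisons). The other runs could change no sign, since they keep the order of the libraries or leave some out. Median centring kept 78 of them and lost Wls from e14.5 to e17.5 and Tle1 from e14.5 to P0. Quantile normalization kept 76, losing also Fzd1 from e12.5 to e14.5 and Apc from e14.5 to P0. Dropping the filter could lose none of the 80, since every member passed it. Adding 1 RPKM could lose none either, since it keeps the order of the libraries. Leaving out a library can only narrow a range, so it can add calls but lose none.

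With ranges at least 0.5 log2 apart, members higher and lower numbered 0 and 7 (e14.5 against e12.5), 0 and 3 (e17.5 against e14.5), 0 and 0 (P0 against e17.5), 2 and 5 (adult against P0) and 2 and 5 (P0 against e14.5). This kept 30% of the member calls and 7043 of the 22040 calls of all genes. In the same order, 19.4%, 8.33%, 0%, 19.4% and 19.4% of the members were called. The shares of all genes were 14.1%, 4.88%, 0.14%, 22.7% and 16.4%. The e17.5 column names carry 2 series of sample numbers with 5 libraries each. Against P0, the first series alone gave 2 higher and 2 lower (11.1%, against 15.2% of all genes). The second gave 2 and 8 (27.8%, against 22.1%). Both runs were added after the data were seen and have fewer libraries.

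Leaving out 1 library at a time, counts higher and lower ranged over 3 to 4 and 19 to 20 (e14.5 against e12.5), 2 to 3 and 10 to 12 (e17.5 against e14.5), 1 to 2 and 1 to 4 (P0 against e17.5), 7 to 7 and 18 to 23 (adult against P0), and 4 to 4 and 15 to 16 (P0 against e14.5). The 4 came without e17.5 library 6 (Wnt7b, Sfrp1 and Lrp6 added), 3 without P0 library 10 (Wnt8b and Fzd7 added). The lower count was 2 without e17.5 libraries 8, 9 or 10 or P0 libraries 1, 3, 8 or 9, each in turn, and the higher count 2 without e17.5 library 2 (Porcn added) or P0 library 3 (Dkk3 added). Of all genes, 13.8% were called without e17.5 library 6 (P0 against e17.5) and 61.2% without adult library 1 (adult against P0). For the other single libraries the share of all genes was not counted, so a change in members cannot be told from a change in all genes.

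Members rising with Chd8 numbered 7, and 8 after quantile normalization, 4 without P0 and 2 without adults. Fewer of all genes were called too, 21.6% without P0 and 17.9% without adults, against 13.9% and 8.33% of the members in either direction. The 1 falling became 2 after quantile normalization (Fzd2 added), was Fzd2 in place of Fzd9 without P0, and was 0 by limma without e14.5 or without e17.5, with 2 at an unadjusted p below 0.05 in each. Without e14.5 and without e17.5, 16.7% of the members were called, against 20.3% and 21.5% of all genes. Without single libraries the rising count was 4 to 7, lowest without adult library 4, and the falling count 0 to 2, with 0 without e14.5 library 1 or e17.5 library 2 and 2 without e17.5 library 10 or P0 libraries 4, 6, 10 or 11. The share of all genes moved too, from 20.2% without e14.5 library 1 (16.7% of the members) to 29.2% without e14.5 library 2 (22.2% of the members). With thalamic markers, the 1 rising became 2 without adults (Axin2 added), and the 0 falling by limma (2 at an unadjusted p below 0.05) became 2 after quantile normalization (Wnt7b and Dvl2) and 1 without adults (Wnt7b). Without single libraries these were 1 to 2 and 0 to 2. Rising was 2 without e17.5 library 1 (Nkd1 added) or adult library 4 (Axin2 added), and falling was 2 without adult library 1 and 1 without e17.5 library 5, P0 library 2 or adult libraries 2 or 3. In these fits the share of all genes ran from 2.88% without e17.5 library 6 (2.78% of the members) to 6.58% without adult library 4 (5.56% of the members). With thalamic markers, 8.33% of the members were called after quantile normalization, against 6.49% of all genes, and 8.33% without adults, against 10.1%. The cause of these changes in the counts was not tested. No paired analysis was possible because the columns carry no replicate numbers that the labels tie to a sample. Read counts were not given, so depth behind low values such as Wnt10a before birth is unknown.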
